A study of Mus musculus with 8 samples.

Results

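The genes described here encode the factors that start and extend protein chains on the ribosome, measured in the liver of mice fed a high-fat diet and given an antisense oligonucleotide (ASO) against Mogat1. Mogat1 encodes monoacylglycerol acyltransferase 1, an enzyme that makes diacylglycerol. Members were taken by name: every probe whose symbol in the array file begins with Eif or Eef and a digit, leaving out the kinases Eif2ak1, Eif2ak2, Eif2ak3, Eif2ak4 and Eef2k. That rule gave 110 of the 45281 probes, which stand for 57 of 28908 genes once old symbols were updated. A total of 80 probes from 49 genes were bright enough to be tested.

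The name covers genes that are no translation factors. The symbols Eif2c1, Eif2c2, Eif2c3 and Eif2c4 are former names of the Argonaute genes Ago1, Ago2, Ago3 and Ago4, whose proteins carry small RNAs. Without them 46 of 53 genes were tested. Eef1e1, a scaffold protein of the multi-synthetase complex, also carries a factor name and was kept in the counts. Factors that stand under other names in the array file are not covered by the rule. Of the 57 members, 8 were not tested because their probes were detected on too few arrays: Eif2s1, Eif1ax, Eif3e, Eif3h, Eif4e1b, Eif5a2, Eef1a2 and Ago1. Of these, Eif3h was detected on 1 array and the other 7 on none.

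All 8 animals were male C57BL/6J mice kept from the age of 6 weeks on food in which fat supplied 60% of the calories, the controls included. After 14 weeks of that diet, 4 mice were injected intraperitoneally with an ASO directed against Mogat1 and 4 with a scrambled control ASO, each at 25 mg/kg for 3 weeks with 2 injections weekly. Their age is listed as 25 weeks. RNA of whole liver, with all its cell types, was hybridised to 1 single-colour Illumina bead array per mouse.

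Translation starts when eIF2, carrying GTP and the initiator methionyl-tRNA, joins the small ribosomal subunit together with eIF1A, eIF3 and eIF5. The eIF4F complex (the cap-binding eIF4E, the scaffold eIF4G and the helicase eIF4A) brings the mRNA, and the eIF4E-binding proteins block that step unless the kinase mTORC1 phosphorylates them. The exchange factor eIF2B reloads eIF2 with GTP, and stress kinases slow it by phosphorylating eIF2. During elongation eEF1A delivers aminoacyl-tRNAs, the eEF1B subunits recharge eEF1A with GTP, and eEF2 moves the ribosome along the mRNA. Messages for elongation factors, for some initiation factors and for ribosomal proteins commonly begin with a cytosine and a run of pyrimidines (the TOP motif), through which mTORC1 governs how well they are translated. The arrays measured RNA level, not translation or phosphorylation.

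The array data as a whole set several limits. The median probe signal ranged from 84.3 to 112 between arrays, and the number of detected probes from 15788 to 16944. Replicate 1 of the Mogat1 ASO group stood apart from the other 3 arrays of its group on the second of the principal components, at 34.4 against -15.7 to -0.083. Control replicate 1 stood apart from the other controls in the same direction, at 13.9 against -12.4 to -7.05. On the first component Mogat1 ASO replicate 1 was the treated array nearest the controls, at 8.36 against 23.6 to 29.2. The controls lay there at -25.8 to -16.7. The Mogat1 probe was not detected on any array (lowest detection p-value 0.814), so these arrays do not check the knockdown. Of 6 hepatocyte markers, Ttr, Apoa1, Cps1 and Hnf4a were detected, with none past the threshold, while the Alb and Tat probes were detected on too few arrays to be tested. Among 6 macrophage markers 1 (Lyz2) was past the threshold, 1.57-fold higher in the Mogat1 ASO group. The summed level of those markers was 5012 to 6033 in controls and 6005 to 8944 under the Mogat1 ASO. Lyz2 was the brightest of them, so the sum largely follows it. The others took both signs, none past the threshold. Cd14 (log2 difference 0.54) and Cd68 (0.27) were higher, and Clec4f (-0.099), Csf1r (-0.045) and Adgre1 (-0.025) slightly lower. Of 5 endothelial markers Lyve1 was higher (2.43-fold) and Stab2 lower (1.48-fold), with sums of 1242 to 1529 and 1209 to 1328. No tested marker of lymphoid cells, neutrophils, stellate cells, cholangiocytes, erythroid or proliferating cells passed the threshold, and the markers Cd8a, Cd79a, Ms4a1, Ly6g, Elane, Col1a1, Col3a1, Krt19, Epcam, Mki67, Top2a and Ccnb1 were not tested because they were detected on too few arrays. The part of these marker differences in the results on translation factors was not tested. In whole liver, fewer cells of a type and less RNA per cell cannot be told apart.

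The levels of translation factors differed little between the groups. Of the 49 tested genes, 5 rose under the Mogat1 ASO (10.2%), and across all 11686 tested genes the share that rose was 7.14%. The 5 were the elongation factors Eef2, Eef1b2 and Eef1g and the initiation factor subunits Eif2s2 and Eif3f. No member fell (0 of 49 by limma's moderated test with Benjamini-Hochberg adjustment at 0.05), against 6.12% of all genes. At an unadjusted p under 0.05, 10 members were higher (20.4%, all genes 15.2%) and 1 was lower (2.04%, all genes 13.7%). Counted by probe, 9 of 80 were higher (11.2%) and 0 lower, against 6.68% and 5.93% of all probes. The share that rose is near the background, so the count does not set these genes apart from the rest of the array.

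Sizes were small as well. The median log2 difference over the members (Mogat1 ASO minus control ASO) was 0.067, against -0.0036 over all genes. Above 0 were 33 of 49 members, and 5781 of all 11686 tested genes. The folds of the 5 genes that rose lay between 1.197 and 1.484. For 40 of the 44 members not past the threshold, the 95% interval of the difference lay within 0.5 log2 units of 0 on either side. The exceptions were Eif4ebp3, Eif4e3, Eif4b and Eif2s3y. The levels of the groups did not overlap for 6 members that were higher (12.2%, background 10.3%) and for 2 that were lower (4.08%, background 8.81%). The median SD among the 4 arrays of a group was 0.11 in controls and 0.12 under the Mogat1 ASO. Under median scaling in place of quantile normalization 1 member (Eef1b2) rose, and the count was 1 to 6 when each array was left out in turn. Without Mogat1 ASO replicate 1, the array furthest out on the second component, 6 members rose (the same 5 and Eif4g1) and the median was 0.019. Without control replicate 1, which lay on the same side, 3 rose and the median was 0.081. With 1 array per mouse, p-values set the difference between groups against the spread among mice, which cannot be told apart from that of the arrays.

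**Figure D1:**
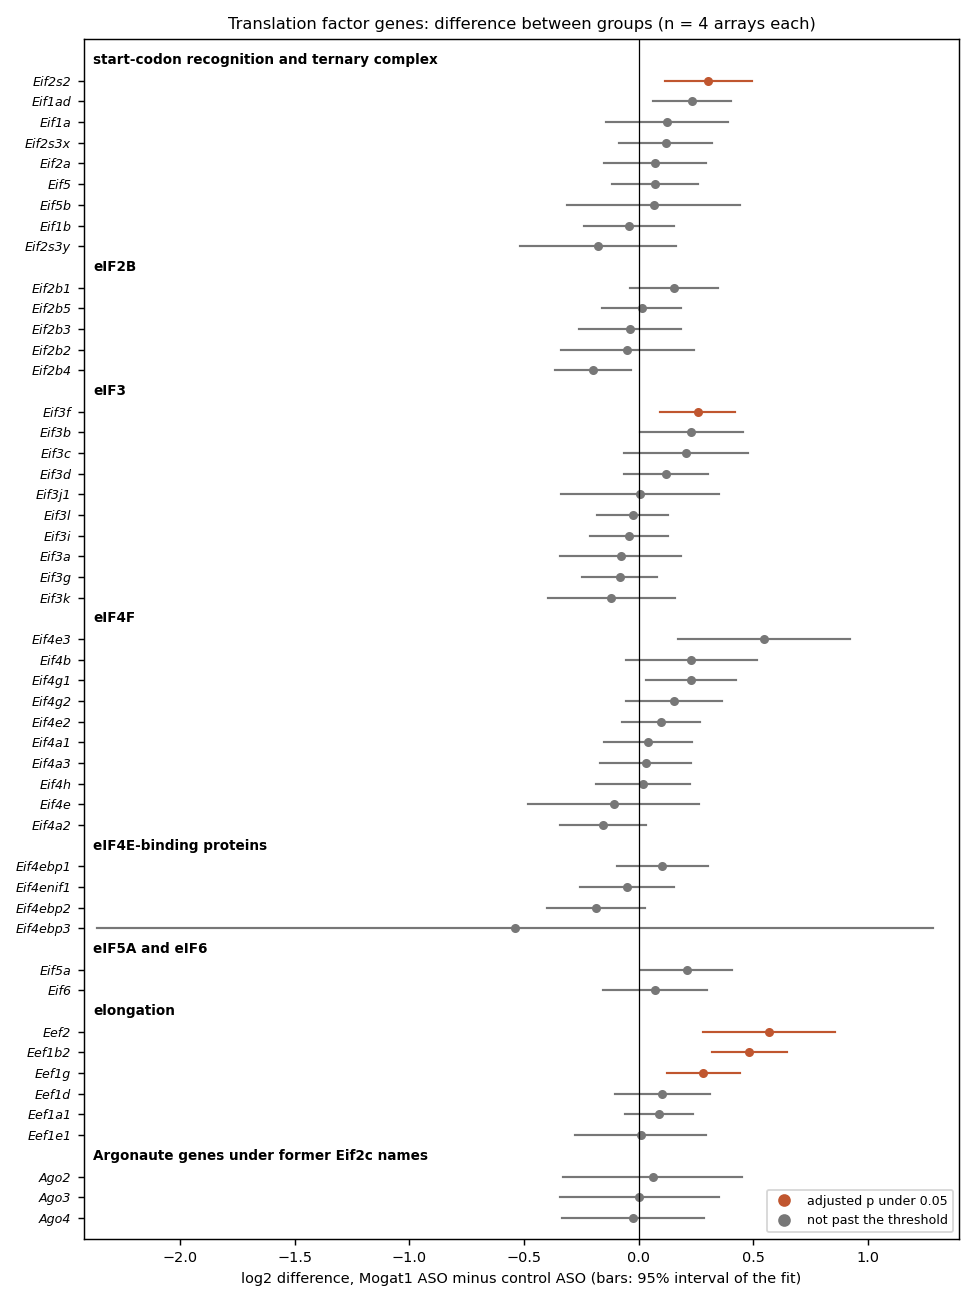
Log2 difference in normalized level (Mogat1 ASO minus control ASO, horizontal axis) of the 49 tested members, grouped by role on the vertical axis; points are estimates, bars the 95% interval of the fit, and coloured points have an adjusted p under 0.05. The 5 coloured genes lie between 0.26 and 0.57, 3 of them among the elongation factors, and the bar of Eif4ebp3 is by far the widest.

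The elongation factors held 3 of the 5 genes that rose. All 6 tested genes of this group had a positive difference, with a median of 0.19, and Eef2, Eef1b2 and Eef1g passed the threshold. Eef1e1 turned negative with array weights, without both arrays numbered 1 and in 4 of the 8 fits without an array. Of all 11686 tested genes, 5781 had a positive difference and 7.14% rose.

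Eef2 encodes the translocase that moves the ribosome by a codon after each peptide bond. On its brightest probe the control arrays read 11.54, 11.36, 11.49 and 11.26 on the log2 scale, and the Mogat1 ASO arrays 11.77, 11.72, 12.17 and 12.27. All 4 treated mice lay above all 4 controls, with replicates 3 and 4 well above replicates 1 and 2. The mean was 11.41 ± 0.13 in controls and 11.98 ± 0.28 under the Mogat1 ASO (SD, n = 4), a 1.48-fold rise (log2 difference 0.57, SE 0.13, adjusted p = 0.0165, limma). The other Eef2 probes gave log2 differences of 0.65 (SE 0.12, adjusted p = 0.00735, limma) and 0.47 (SE 0.10, adjusted p = 0.0148, limma), and on both the groups did not overlap. With median scaling the adjusted p of Eef2 was 0.0631 (limma), and it was 0.0519 without control replicate 2 and 0.0574 without Mogat1 ASO replicate 3.

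Eef1b2 encodes a nucleotide exchange subunit of eEF1B, and its probes disagreed. The brightest read 11.36, 11.21, 11.28 and 11.33 in controls and 11.70, 11.73, 11.85 and 11.83 under the Mogat1 ASO. The groups were well apart, and the arrays within each group lay close together. That probe rose 1.398-fold (log2 difference 0.48, SE 0.075, adjusted p = 0.00274, limma) and stayed past the threshold whichever array was left out (adjusted p 0.0018 to 0.0131, limma). The second probe gave a log2 difference of 0.18 (SE 0.094, adjusted p = 0.252, limma), with overlapping groups. The third gave -0.069 (SE 0.13, adjusted p = 0.781, limma), the Mogat1 ASO arrays lying on both sides of the controls. With the mean of the 3 probes the log2 difference was 0.20 and the adjusted p 0.121 (limma), so the rise of Eef1b2 rests on 1 of its probes. Which transcripts each probe reports was not tested.

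Eef1g encodes the structural gamma subunit of eEF1B. Its only tested probe read 13.43, 13.46, 13.45 and 13.35 in controls and 13.61, 13.65, 13.78 and 13.78 under the Mogat1 ASO. No treated array reached down to a control, and replicates 3 and 4 were again the highest. The rise was 1.22-fold (log2 difference 0.28, SE 0.072, adjusted p = 0.0264, limma). It was not past the threshold in 3 of 12 other settings and in 5 of the 8 fits that left an array out.

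The other elongation genes did not pass the threshold. Eef1a1, which delivers aminoacyl-tRNA and is among the most abundant messages of the cell, read 15.61 to 15.76 in controls and 15.70 to 15.81 under the Mogat1 ASO (log2 difference 0.090, SE 0.067). Its 2 probes stood at 67.1% to 93.3% of the brightest signal on their arrays, near the top of the scale, and whether this narrowed the difference was not tested. Processed copies of Eef1a1 are known, so the source of its signal is uncertain. Eef1d, the delta subunit of eEF1B, gave 0.10 (SE 0.094). Eef1e1, a scaffold protein of the multi-synthetase complex that carries an elongation factor name, gave 0.0089 (SE 0.13).

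Among 9 tested genes of start-codon recognition and the eIF2 ternary complex, 1 rose and none fell, with a median log2 difference of 0.073. The gene was Eif2s2, the beta subunit of eIF2, which binds eIF5 and eIF2B. It read 10.04, 9.94, 9.96 and 10.10 in controls and 10.30, 10.18, 10.32 and 10.47 under the Mogat1 ASO. The lowest treated array was just above the highest control. The rise was 1.24-fold (log2 difference 0.31, SE 0.087, adjusted p = 0.0423, limma), while a dimmer probe gave 0.16 (SE 0.097, adjusted p = 0.311, limma). The call was lost in 5 of 12 other settings and in 6 of the 8 fits without an array. The alpha subunit, Eif2s1, which the stress kinases phosphorylate, was not measured well enough to be tested.

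The gamma subunit of eIF2 is encoded by a gene on each sex chromosome of the mouse. The X-linked Eif2s3x gave a log2 difference of 0.12 (SE 0.092) and the Y-linked Eif2s3y of -0.18 (SE 0.16), neither past the threshold. Eif1ad, which resembles eIF1A, read 9.58, 9.62, 9.68 and 9.69 in controls and 9.86, 9.92, 9.81 and 9.91 under the Mogat1 ASO. These groups did not overlap, and the adjusted p was 0.0721 (log2 difference 0.23, SE 0.077, limma). A dimmer Eif1ad probe gave 0.15 (SE 0.10, adjusted p = 0.371, limma), with overlapping groups. A further probe of the gene, outside the rule because it is listed under another symbol, gave -0.043 (SE 0.12, adjusted p = 0.851, limma). The probes of Eif5, the GTPase activator of eIF2, gave 0.071, 0.048 and -0.14.

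Of 10 tested eIF3 subunits, 1 rose and none fell, and the median log2 difference was -0.0092. eIF3 is the large scaffold that holds the initiation complex on the small subunit. The gene that rose was Eif3f, a subunit with an MPN domain. It read 13.04, 13.20, 13.18 and 13.11 in controls and 13.39, 13.29, 13.41 and 13.49 under the Mogat1 ASO, without overlap. This 1.197-fold rise was the smallest of the 5 (log2 difference 0.26, SE 0.075, adjusted p = 0.0445, limma). A second probe, listed under the old name Eif3s5, gave 0.18 (SE 0.077, adjusted p = 0.159, limma), and its groups did not overlap either. The call was lost in 6 of 12 other settings and in 6 of the 8 fits without an array.

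The remaining eIF3 subunits ranged from -0.12 to 0.23. Eif3b, a core subunit with an RNA recognition motif, was at the upper end with 0.23 (SE 0.10, adjusted p = 0.168, limma), and Eif3d, which can itself bind the cap, gave 0.12. Eif3c gave 0.21 on 1 probe and -0.033 on a dimmer one. Eif3i gave -0.043, 0.061 and 0.15, and Eif3l -0.025 and 0.00615.

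**Figure D2:**
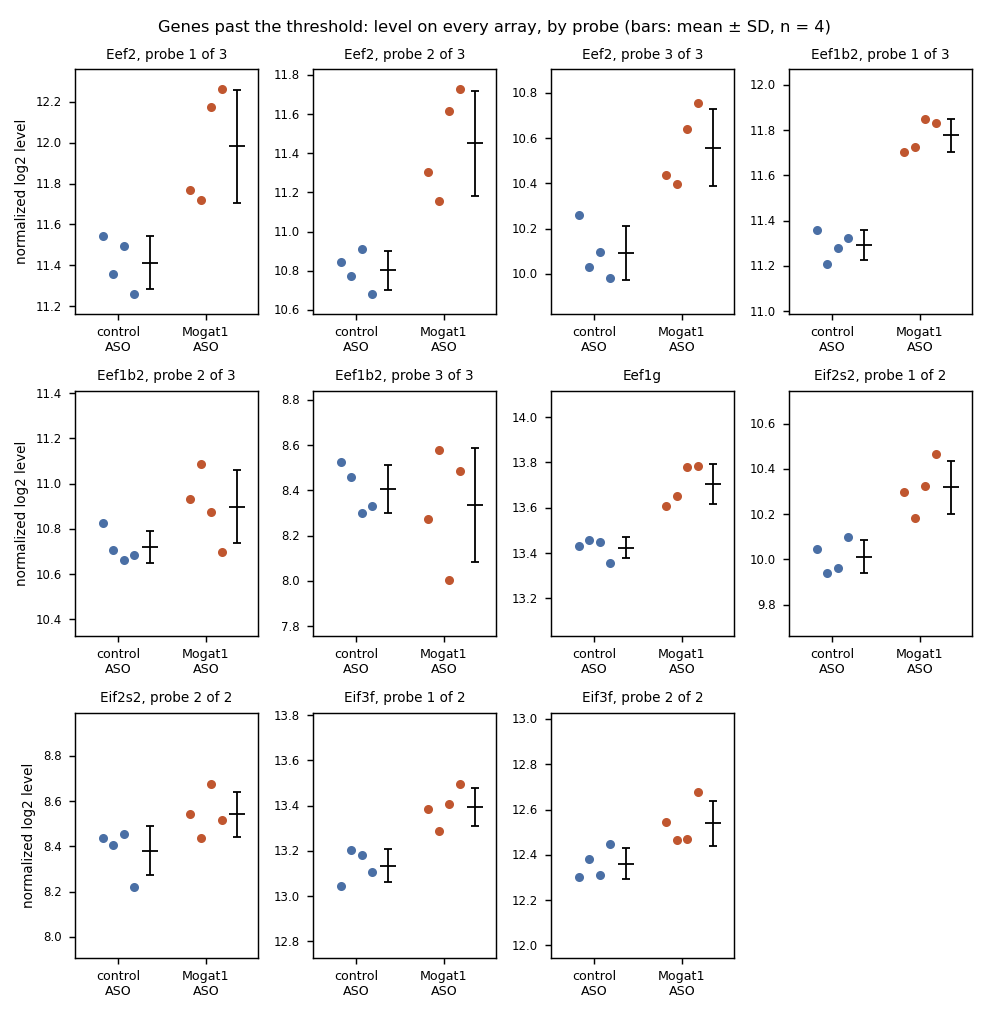
Normalized log2 level (vertical axis, own scale in each panel) on every array of each tested probe of the 5 genes that rose; points are arrays in replicate order, bars the mean ± SD of 4. The 3 Eef2 probes separate the groups, while for Eef1b2 only the brightest probe does.

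The start regions of these genes were read to show how the annotated transcripts begin, since a TOP motif sits at the very 5′ end. Each line gives 30 bases, from 5 before to 25 from the annotated start on, of the RefSeq promoter table (build GRCm38.p6), on the strand of the gene. Capitals mark a C followed by at least 6 further C or T, on the sense strand only. The windows of Eef2 (chr10:81176626-81176655, plus strand), Eif3f (chr7:108934410-108934439, plus strand), Eef1b2 (chr1:63176826-63176855, plus strand) and Eif2s2 (chr2:154892882-154892911, minus strand) belong to genes that rose. That of Eef1a1 (chr9:78481700-78481729, minus strand) is shown beside them as an elongation factor that did not pass the threshold.
Eef2: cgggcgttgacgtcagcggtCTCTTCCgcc
Eif3f: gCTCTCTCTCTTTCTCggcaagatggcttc
Eef1b2: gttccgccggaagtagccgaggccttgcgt
Eif2s2: tggctttactgtacgcctgcgctttggcga
Eef1a1: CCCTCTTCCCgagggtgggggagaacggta

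Of the 4 genes that rose and have an entry, 2 held such a run (Eef2 and Eif3f), and Eef1g was not matched. A run was counted wherever it lay in the window, so a count is not one of transcripts that begin with a run. That of Eif3f spans the annotated start, while that of Eef2 lies toward the far end of the window. Of 38 tested members with an entry 12 held one (31.6%), against 3822 of 27025 genes (14.1%). The second share is over all genes with an entry, whether or not they were tested here, so the sets are unlike. A gene with several annotated starts was counted if any of them held a run. Eef1a1 held a run of 10 bases and did not pass the threshold, and Eef1b2, whose brightest probe rose, held none in this window. The search was chosen after the values were seen. A match is only a description of these letters, and the annotated start may lie some bases from the start used in liver.

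None of the 5 subunits of eIF2B, the exchange factor of eIF2, passed the threshold, and their median log2 difference was -0.038. Eif2b4, the delta subunit, read 10.75, 10.84, 10.72 and 10.74 in controls and 10.60, 10.51, 10.63 and 10.51 under the Mogat1 ASO. It was lower on every treated array than on any control, with a log2 difference of -0.20 (SE 0.075, adjusted p = 0.111, limma). Eif2b1, the alpha subunit, which helps sense phosphorylated eIF2, was on the other side of 0 with 0.16 (SE 0.087) and 0.057 on a second probe.

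Of 10 tested eIF4F genes and their helpers, none passed the threshold on its representative probe, and the median was 0.070. Eif4e3, which encodes an eIF4E-like cap-binding protein, had the largest difference of any tested member probe. On its brightest probe the controls read 8.16, 8.56, 8.87 and 8.06 and the treated arrays 9.004, 8.986, 8.72 and 9.13. Control replicate 3 lay above Mogat1 ASO replicate 3, so the groups overlapped, and the adjusted p was 0.0588 (log2 difference 0.55, SE 0.17, limma). On both dimmer probes the groups did not overlap. The second read 7.43, 7.14, 7.45 and 6.65 in controls and 7.68, 7.74, 7.65 and 8.11 under the Mogat1 ASO, 1.55-fold higher (adjusted p = 0.0438, limma). The third read 6.09, 5.96, 5.86 and 5.20 and then 6.59, 6.75, 6.59 and 6.82, 1.87-fold higher (log2 difference 0.91, SE 0.18, adjusted p = 0.00898, limma). It was detected on 3 of 4 controls and on all 4 treated arrays, and its lowest control, at 5.20, lay near background. With the mean of its probes Eif4e3 passed the threshold (log2 difference 0.69, adjusted p = 0.0175, limma). It also did without control replicate 3, the control that lay above a treated array (0.70, adjusted p = 0.0215, limma). These were the only passes, in 1 of 12 other settings and 1 of the 8 fits without an array. In the rest the adjusted p reached 0.12 and 0.149 (limma).

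The other cap-binding genes showed no such difference. Eif4e itself, the main cap-binding protein, was detected on 2 of 4 arrays in each group and lay near background, at 4.98 to 5.54 in controls and 4.73 to 5.27 under the Mogat1 ASO. Its log2 difference was -0.11 (SE 0.17), so this array says little of it. Eif4e2, a cap-binding protein that represses translation, gave 0.098, 0.053 and 0.23 on its probes, none past the threshold.

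**Figure D3:**
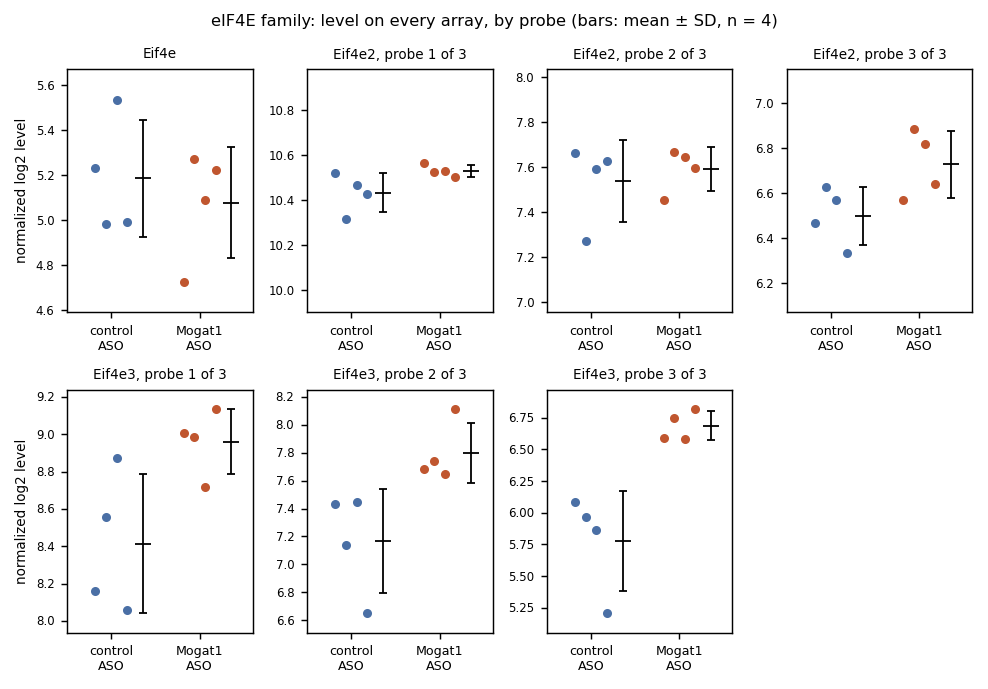
Normalized log2 level (vertical axis, own scale in each panel) of every tested probe of Eif4e, Eif4e2 and Eif4e3 on every array, with mean ± SD of 4 as bars. The Mogat1 ASO arrays lie above the controls on the dimmer Eif4e3 probes and overlap them on the Eif4e and Eif4e2 probes.

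Among the scaffolds, Eif4g1 read 10.51, 10.51, 10.68 and 10.53 in controls and 10.63, 10.74, 10.87 and 10.91 under the Mogat1 ASO. Control replicate 3 reached into the treated range, and the adjusted p was 0.117 (log2 difference 0.23, SE 0.089, limma), with 0.0048 on a second probe. Eif4g2, a scaffold without the eIF4E-binding site, gave 0.15 (SE 0.095) and 0.28 on a dimmer probe. The helicase Eif4a1 gave 0.041 and 0.22, and its close relative Eif4a2 gave -0.15 on the brighter probe and 0.31 on the dimmer one. Neither helicase passed the threshold, and the probes of Eif4a2 took opposite signs.

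The eIF4E-binding proteins had a median log2 difference of -0.12 over 4 genes, none past the threshold. Eif4ebp1 read 11.28, 11.15, 11.14 and 11.44 in controls and 11.38, 11.47, 11.29 and 11.29 under the Mogat1 ASO, with overlapping groups (log2 difference 0.10, SE 0.090). Eif4ebp2 read 11.315, 10.965, 10.998 and 10.997 in controls and then 10.94, 10.74, 10.93 and 10.93. All treated arrays lay below all controls, by a narrow margin (log2 difference -0.18, SE 0.098, adjusted p = 0.249, limma). Eif4enif1, which carries eIF4E into the nucleus, gave -0.049 and 0.035.

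Eif4ebp3 was the most variable member. It read 9.73, 6.62, 6.37 and 6.29 in controls and 8.82, 5.20, 6.51 and 6.33 under the Mogat1 ASO. The array numbered 1 was the highest of its group in each group, at 9.73 and 8.82, and the other 6 lay between 5.20 and 6.62. The log2 difference was -0.54 with an SE of 0.83 and a 95% interval of -2.36 to 1.29 (adjusted p = 0.725, limma). Without both arrays numbered 1, a setting chosen after seeing the data, it was -0.41 (SE 0.29, adjusted p = 0.344, limma). These arrays therefore leave its difference between the groups undetermined, and no shared origin of the mice numbered 1 is stated.

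**Figure D4:**
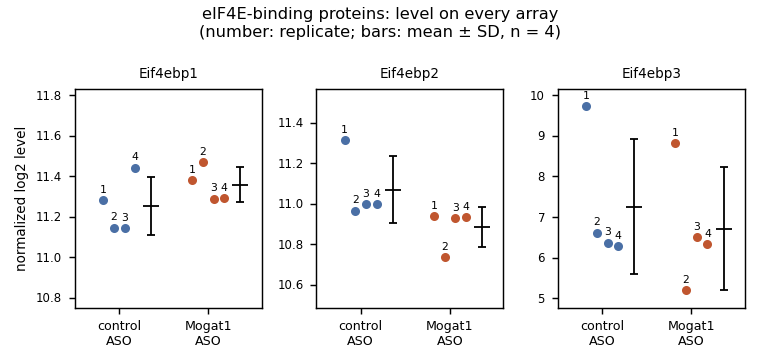
Normalized log2 level (vertical axis, own scale in each panel) of Eif4ebp1, Eif4ebp2 and Eif4ebp3 on every array, labelled with the replicate number, with mean ± SD of 4 as bars. The arrays numbered 1 stand alone at 9.73 and 8.82 for Eif4ebp3.

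Eif5a, the hypusine-bearing factor that relieves stalled ribosomes, read 11.56, 11.39, 11.40 and 11.22 in controls and 11.46, 11.64, 11.65 and 11.67 under the Mogat1 ASO. Replicate 1 of the treated group lay inside the control range and the other 3 above it. Its 3 probes gave log2 differences of 0.21, 0.25 and 0.21, with adjusted p of 0.154, 0.0635 and 0.170 (limma). Without both arrays numbered 1, a setting chosen after seeing the data, Eif5a passed the threshold (log2 difference 0.31, SE 0.081, adjusted p = 0.0227, limma). Those arrays were its highest control and its lowest treated array. Eif5a passed in 2 of 12 other settings, that one included. It passed in 0 of the 8 fits without an array (adjusted p 0.0684 to 0.333, limma). Eif6, which keeps the large ribosomal subunit from joining too early, gave 0.072 (SE 0.10). The Argonaute genes had a median of 0.0039 over the 3 tested. Ago2, the slicing Argonaute, gave 0.062 (SE 0.18), and the probes of Ago3 gave 0.0039, -0.25 and -0.11.

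The translation factors work with other genes, given here from lists of the same machinery. Of 72 tested genes on these lists (84 in all), 6 rose and 6 fell (8.33% each), beside 7.14% and 6.12% of all genes. Their median log2 difference was 0.016.

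Of 4 tested kinases of eIF2 and eEF2, 1 rose. Eif2ak2, the kinase PKR that double-stranded RNA activates, read 8.78, 8.64, 8.84 and 8.73 in controls and 9.25, 9.29, 9.25 and 9.22 under the Mogat1 ASO. The groups were far apart and the treated arrays nearly level. The rise was 1.42-fold (log2 difference 0.51, SE 0.084, adjusted p = 0.00371, limma) and held in every alternative setting run. Of 9 poly(A)-binding and release factors, Gspt1, the GTPase partner of the release factor, fell by 0.27 on the log2 scale (adjusted p = 0.0304, limma), a call lost in 4 of 12 other settings and in 6 of the 8 fits without an array.

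Among 9 mitochondrial translation factors, 1 rose and 1 fell. Gfm2, which encodes the mitochondrial factor that splits ribosomes for recycling, read 9.65, 9.61, 9.64 and 9.53 in controls and 8.72, 8.74, 8.44 and 8.35 under the Mogat1 ASO. It was lower by a wide margin on all 4 treated arrays, 2.06-fold on average (log2 difference -1.04, SE 0.11, adjusted p = 0.000365, limma), and a second probe gave -1.02. Tufm, the mitochondrial counterpart of eEF1A, rose by 0.24 (SE 0.068, adjusted p = 0.0392, limma), a call lost in 5 of 12 other settings and in 7 of the 8 fits without an array. The hypusine enzymes that modify eIF5A did not pass the threshold (Dohh 0.064, SE 0.14).

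Of 14 tested genes of the mTORC1 pathway, 2 rose and 1 fell, and the median was -0.082. Rptor, the subunit that presents substrates such as the eIF4E-binding proteins to mTOR, read 8.91, 9.27, 9.26 and 9.14 in controls and 8.44, 8.53, 8.43 and 8.50 under the Mogat1 ASO. It fell 1.59-fold (log2 difference -0.67, SE 0.10, adjusted p = 0.00251, limma), without overlap. Mlst8, another mTOR partner, rose on its brightest probe (log2 difference 0.43, SE 0.13, adjusted p = 0.0469, limma), although its groups overlapped. That call was lost in 3 of 12 other settings and in 7 of the 8 fits without an array. Dimmer Mlst8 probes gave 0.47 (SE 0.12, adjusted p = 0.0271, limma) and 0.39 (SE 0.14, adjusted p = 0.0891, limma). Rps6, the ribosomal protein phosphorylated downstream of mTORC1, read 13.30, 12.98, 13.03 and 13.08 and then 13.58, 13.47, 13.62 and 13.61. It rose 1.39-fold (log2 difference 0.47, SE 0.085, adjusted p = 0.00561, limma).

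Of 19 tested cytosolic aminoacyl-tRNA synthetase genes, which charge tRNAs, 3 fell and none rose. Tars, the threonyl-tRNA synthetase, read 6.82, 6.89, 6.56 and 6.92 in controls and 6.26, 6.14, 6.03 and 5.94 under the Mogat1 ASO, and fell 1.63-fold (log2 difference -0.70, SE 0.13, adjusted p = 0.00525, limma). Aars (alanine) read 12.18, 12.24, 12.13 and 12.24 and then 11.92, 11.55, 11.69 and 11.74, a log2 difference of -0.47 (SE 0.088, adjusted p = 0.00647, limma). Nars (asparagine) gave -0.36 (SE 0.093, adjusted p = 0.0264, limma), a call lost in 2 of 12 other settings and in 5 of the 8 fits without an array. The groups did not overlap for any of the 3. The median of the list was 0.0074, with 11 genes above 0 and 8 below. Of 15 tested ribosome biogenesis genes, 2 rose, Gar1 (log2 difference 0.42, adjusted p = 0.0286, limma) and Nhp2 (0.38, adjusted p = 0.0162, limma), both proteins of the box H/ACA particles that modify ribosomal RNA. Without an array, the call of Gar1 was lost in 5 of 8 fits and that of Nhp2 in 3.

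**Figure D5:**
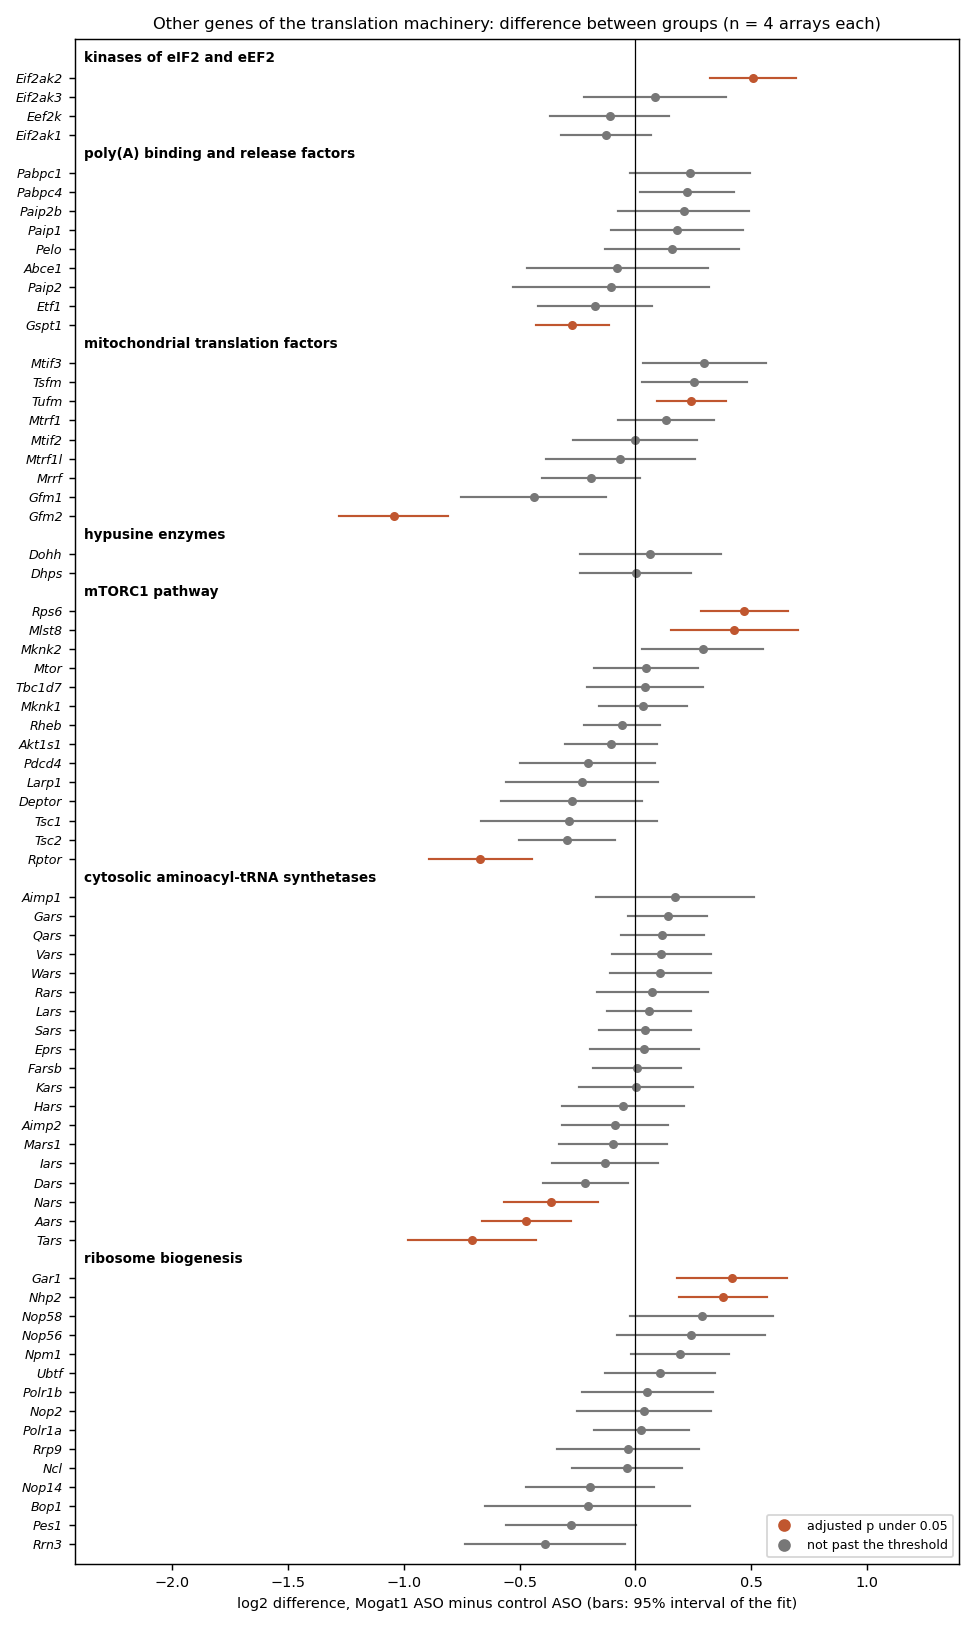
Log2 difference in normalized level (Mogat1 ASO minus control ASO, horizontal axis) of 72 tested genes that work with the translation factors, by list on the vertical axis; points are estimates, bars the 95% interval of the fit, and coloured points have an adjusted p under 0.05. The 6 genes that rose lie between 0.24 and 0.51, and the 6 that fell reach -1.04 for Gfm2.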

How the data were processed

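The deposited non-normalized table pairs each probe's intensity on an array with a detection p-value, per the file headers. The deposited series table, used only as an alternative, holds a linear, background-subtracted intensity with values below 0, floored here at 16. The sources used here do not name the software behind either.

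The neqc function of limma 3.58.1 (R 4.3.3, values read by the package data.table, version 1.17.8) corrected the background from the detection p-values, added an offset of 16, normalized by quantiles and took log2. The 16487 probes with a detection p under 0.05 on at least 4 of 8 arrays were tested in 1 two-sided fit (lmFit and eBayes with a trend), with Benjamini-Hochberg adjustment over all of them and a threshold of 0.05. The code was tested on simulated data. A gene is represented by its tested probe of highest mean. Folds are 2 to the power of the log2 difference, and SEs are on the log2 scale. Precision is set by the number of mice, since an array has no depth of counting. Symbols were updated in R through the RefSeq table of GRCm38.p6 (8037 probes). The start regions, outlying arrays and summaries of the text were worked out in Python 3.11.15 with pandas 2.3.3. The plots were made by matplotlib 3.10.9.

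The text names every member past the threshold, the largest difference of each role, members whose probes disagree, and up to 3 called genes of each list of related genes, or its largest difference where none was called. A further 17 members were named after their values were seen. Members and lists were chosen with earlier results of these data known. Alternatives covered background, offset, scaling, filter, variance model, probe choice, array weights and leaving out arrays.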

Additional observations from a re-analysis of the deposited data

Results flagged for a closer look

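Among 94 groups of 4 arrays examined for the named genes, 8 had an array set apart from the other 3, meaning that its gap to the nearest array as a share of the range of the group was above Dixon's 95% critical value. Chance alone gives about 1 such group in 20. Of the 8 arrays, 4 carried the replicate number 1.

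Among the eIF4E-binding proteins, Eif4ebp3 in controls had replicate 1 at 9.73 against 6.29 to 6.62 (gap 0.904 of the range). Eif4ebp2 had control replicate 1 at 11.31 against 10.965 to 10.998 (0.906), and in the Mogat1 ASO group replicate 2 at 10.74 against 10.93 to 10.94 (0.958). Among the eIF4F genes, Eif4a2 had control replicate 4 at 12.94 against 13.10 to 13.11 (0.935), and Eif4g1 had control replicate 3 at 10.68 against 10.51 to 10.53 (0.852). Eif5a had Mogat1 ASO replicate 1 at 11.46 against 11.64 to 11.67 (0.86). Ago2 had Mogat1 ASO replicate 4 at 4.92 against 5.49 to 5.55 (0.916). The release factor gene Gspt1 had control replicate 1 at 12.44 against 12.52 on the other 3 (0.901).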

How the results depend on the processing

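The count of members that fell was 0 under every alternative run. The count that rose, 5, was 1 with median scaling, 2 without a filter on dim probes, 2 without a variance trend, 3 with the mean of a gene's probes and 8 with array weights, which added Eif1ad, Eif4g1 and Eif5a. With replicate number as a block it was 3 (Eef1b2, Eef1g and Eef2 were called). In the remaining settings, the fits without a single array apart, the count that rose stayed at 5. The deviations of same-numbered arrays from their group means correlated at 0.199, 0.0786, -0.031 and 2.8e-05, so the numbers were not taken to pair the mice. Leaving out each array in turn gave 1 to 6. The count over all genes, 1549, was 951 with median scaling, 2610 with array weights, 2443 without both arrays numbered 1 and 887 to 2258 without each array. The members' median, 0.067, was 0.041 without background correction, 0.045 with an offset of 50 and with array weights, 0.031 with median scaling, 0.031 without the filter, 0.032 without both arrays numbered 1 (a setting chosen after seeing the data) and 0.019 to 0.086 without each array. The cause of these shifts was not tested.

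Among the named genes, whose signs were checked, those of the following turned, none of them past the threshold. With median scaling Eif4a1 was -0.018. With array weights Eif4a1 was -0.0089, Eef1e1 -0.038 and Ago3 -0.058. With the mean of probes Ago3 was -0.12, Eif3i 0.056, Eif4a2 0.078 and Eif5 -0.0064. Without both arrays numbered 1 Eif4a1 was -0.038, Eef1e1 -0.081, Ago3 -0.056 and Eif4e 0.024. Without each array in turn Eif4a1 was -0.015 to 0.082, Eef1e1 -0.091 to 0.097, Eif4ebp3 -1.24 to 0.29, Ago3 -0.095 to 0.095, Ago2 -0.056 to 0.21, Eif4e -0.18 to 0.0096 and Dohh -0.036 to 0.11. Gfm2, Rptor, Tars, Aars, Eif2ak2 and Rps6 were past the threshold under every alternative run. Eif4e, Eif4ebp3, Ago2 and Ago4 could not be tested on the condition that a probe be detected on all 8 arrays.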
